A study of Caenorhabditis elegans with 40 samples.

Results

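The 10 genes described here, dpy-4, dpy-5, dpy-13, dpy-17, rol-6, sqt-1, sqt-3, lon-3, bli-1 and bli-2, encode collagens of the Caenorhabditis elegans cuticle that set the shape of the body. They were taken by name from the deposited tables, which held all 10 among 42048 features. The cuticle is a collagen-rich extracellular matrix that the epidermis secretes and remakes at each larval molt. Each collagen is made as a precursor, hydroxylated and assembled in the secretory pathway, and cut by proteases before it is built into the matrix. Mutations in these genes give short (dumpy), twisted (roller), squat, long or blistered animals, which is where the gene names come from.

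RNA was sequenced from whole animals fed E. coli OP50, in 40 libraries that formed 8 groups of 5. The octr-1(ok371) mutants carry an allele of the gene for OCTR-1, an octopamine receptor of the G protein-coupled class that acts in neurons, and wild-type N2 animals served as their controls. The title of the series asks how temperature, aging and OCTR-1 relate to each other. Mutants and wild-type animals were each collected old at 15 °C on day 24 of adulthood, old at 20 °C on day 14, old at 25 °C on day 9, and as young adults at 20 °C. Temperature and day of adulthood changed together among the old groups, so their parts cannot be told apart. All mutants carried a single allele. The labels do not say whether replicates came from separate cultures, so p-values measure the spread between these libraries.

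Libraries held 27875942 to 40997854 reads. Between 21265 and 23755 features had reads in the old libraries, against 17136 to 18406 in the young ones. Levels are given as normalized reads, which are whole reads divided by size factors shared by all 40 libraries. The octr-1 transcript itself averaged 41.96 normalized reads in mutants and 180 in wild type at 15 °C, 28.6 and 194 at 20 °C, 30.1 and 201 at 25 °C, and 15.9 and 57.5 in young adults. No mutant library overlapped a wild-type one in any of the 4 pairs of groups. In 1 deposited table, for old mutants at 25 °C and 20 °C, the 10 columns carried each other's group names when compared with the other tables, and they were used under the names the other tables give.

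Some libraries stood apart in these genes. Here dpy-17 and sqt-3 had many reads and the other 8 members few, a grouping made after their values were seen. Summed over those 8 genes, replicate 3 of wild type at 15 °C held 888 normalized reads, against 168 to 388 in the other 4 libraries of its group. Replicate 4 of the young mutants held 721, against 283 to 353, replicate 3 of wild type at 20 °C held 450, against 177 to 311, replicate 1 of young wild type held 374, against 109 to 230, and replicate 1 of mutants at 15 °C held 190, against 97.8 to 134. In wild type at 15 °C and 20 °C and in young wild type the library with the highest collagen sum was also the one with the highest summed muscle markers, at 6106, 10507 and 54083 normalized reads. Among young mutants the library with the highest collagen sum held 50545 normalized reads of muscle markers, below the 58302 of replicate 5. The part of muscle RNA in the collagen values was not tested. Calls that change without 1 of these 5 libraries are given below with and without it.

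**Figure D1:**
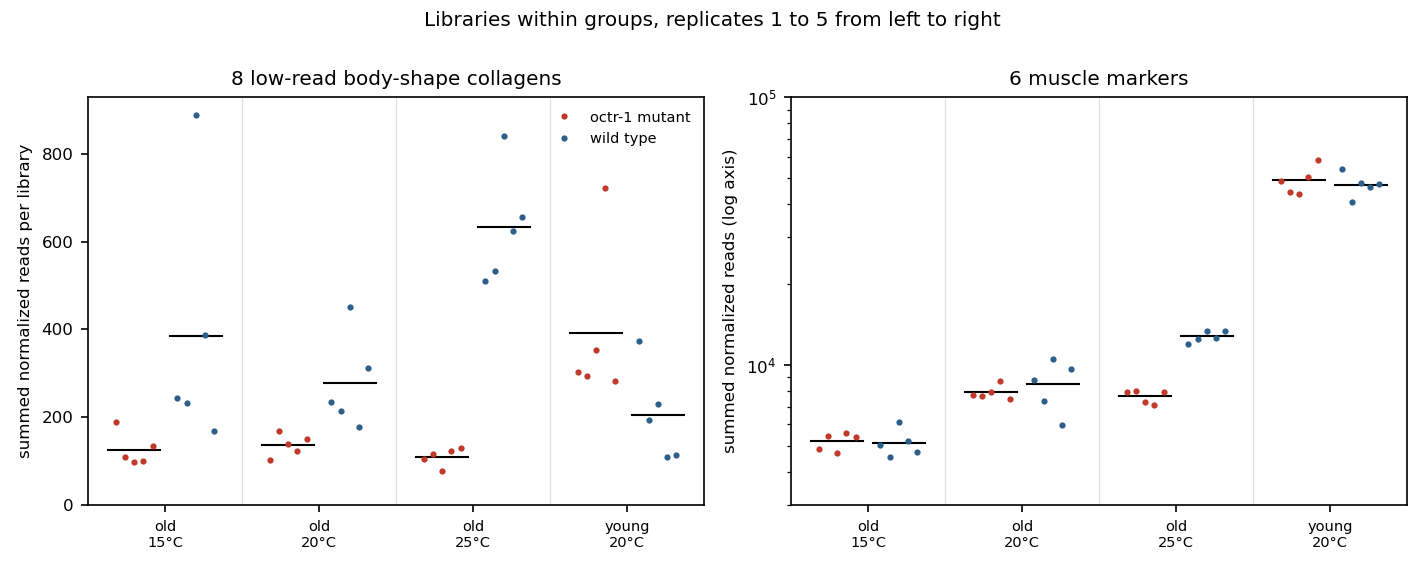
Left, the summed normalized reads of the 8 members with few reads in each library; right, the summed normalized reads of 6 body muscle markers on a log axis. Groups run along the horizontal axis with mutants left of wild type and replicates 1 to 5 from left to right. Replicate 3 of wild type at 15 °C, at 888 normalized reads of the 8 collagens, lies far above the rest of its group.

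Per kilobase of exon, dpy-17 averaged 1697 normalized reads over the 40 libraries and sqt-3 averaged 426. These 2 collagens act together in the animal, are both cut by the astacin protease DPY-31, and SQT-3 needs DPY-17 to be secreted. The level per kilobase was 55.4 for dpy-13, 51.5 for dpy-5 and 51.3 for dpy-4. DPY-5 and DPY-13 lie in the annuli between the furrows of the cuticle. It was 31.4 for sqt-1, 28.1 for lon-3 and 24.7 for rol-6. Loss of lon-3 gives long animals, and rol-6 and sqt-1 interact genetically in roller animals. It was 21.1 for bli-2 and 6.66 for bli-1, whose proteins build the struts that join the layers of the adult cuticle. Replicates of dpy-17 and sqt-3 were close, with coefficients of variation of 2.94% to 11.1% and 3.30% to 15.9% within groups, while dpy-4 varied by 17.8% to 101.5%.

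The members lie on chromosomes I (dpy-5), II (rol-6, sqt-1, bli-1, bli-2), III (dpy-17), IV (dpy-4, dpy-13) and V (sqt-3, lon-3). All are protein-coding, with summed exon lengths between 855 bases for dpy-5 and 3010 bases for bli-1 in Ensembl release 115. Exons of bli-1 overlap dph-2 and exons of sqt-3 overlap the noncoding RNA F23H12.13, each on the opposite strand. Whether the authors' counting used strand is not given in the sources used here, so the values of bli-1 and sqt-3 are uncertain to that extent.

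Groups differed by 3.5-fold in mean level for lon-3 and by 10.8-fold for dpy-5, the ends of the range over the 10 members. The group means of dpy-17 ran, from high to low, 2871 in wild type at 15 °C, 2807 in mutants at 15 °C, 2515 in wild type at 20 °C, 2446 in mutants at 20 °C, 1581 in wild type at 25 °C, 1171 in young mutants, 971 in young wild type and 718 in mutants at 25 °C. Old wild type and mutants at 15 °C and 20 °C overlapped with their neighbours in this order, as did the young groups, and both 25 °C groups stood clear of theirs. The group means of sqt-3 ran 971 in wild type at 20 °C, 797 in wild type at 25 °C, 669 in mutants at 20 °C, 666 in young mutants, 630 in wild type at 15 °C, 491 in mutants at 15 °C, 451 in young wild type and 173 in mutants at 25 °C. The highest 2 groups and the lowest group did not overlap with their neighbours, and the others did. Each of the other 8 members had its highest mean in old wild type at 25 °C, between 39.9 normalized reads for bli-1 and 135 for dpy-13. For these 8 genes every group overlapped with the next in order. Old mutants at 25 °C had the lowest mean for dpy-4, dpy-17, sqt-3, lon-3, bli-1 and bli-2.

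**Figure D2:**
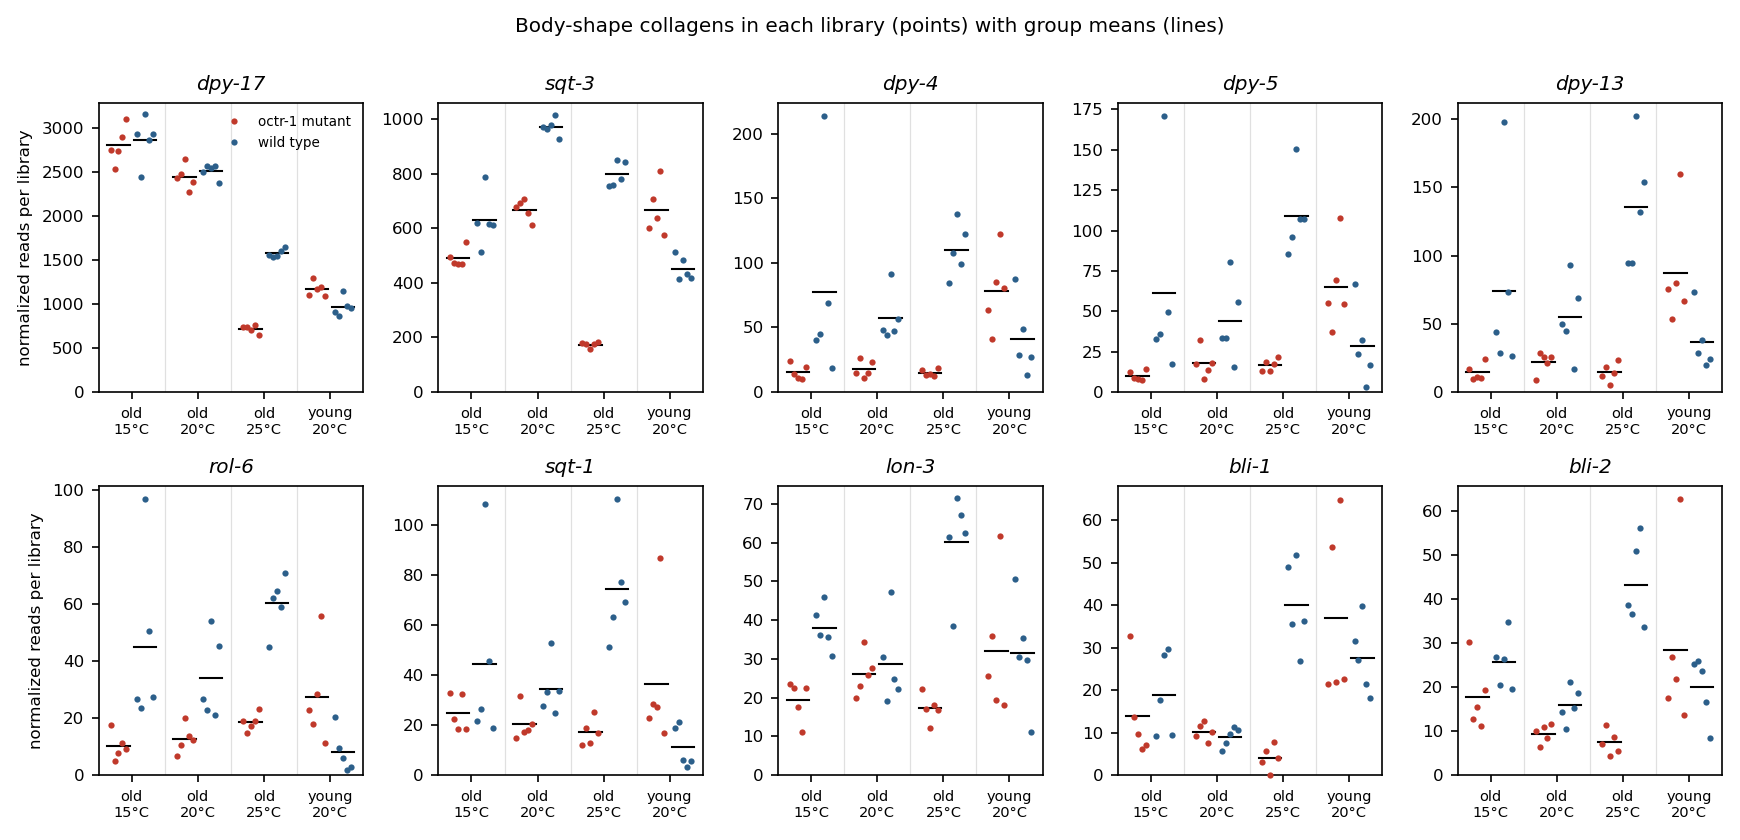
Normalized reads of each of the 10 members in every library, 1 panel per gene, with old animals at 15, 20 and 25 °C and young adults at 20 °C along the horizontal axis. Mutants are red and left, wild type blue and right, points are libraries and lines are group means of 5. At 25 °C the 5 mutant libraries lie below the 5 wild-type libraries in all 10 panels. How many of all genes do the same was not counted.

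The widest gap between genotypes was in old animals at 25 °C. All 10 collagens fell in octr-1 mutants relative to wild type, against 39.7% of all genes tested that were called lower and 76.5% that were called in either direction. A gene was called where the p-value of limma, adjusted by the Benjamini-Hochberg method over all genes tested, was under 0.05. The median log2 fold change was −2.34 over the 10 members and −0.01 over the 15964 genes tested. The count and the median include bli-1, which entered the test through the wild-type libraries alone. Its call therefore adds nothing to the count. No mutant library overlapped a wild-type one for any of the 10 genes. The share of all genes tested whose groups did not overlap was not counted, here or in the comparisons below. Without that share, the lack of overlap is not read as a trait of these genes.

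The partners dpy-17 and sqt-3 gave the smallest relative errors. sqt-3 had 180, 174, 157, 174 and 182 normalized reads in the 5 mutant libraries at 25 °C, against 755, 758, 851, 780 and 843 in wild type. The mutant level was 4.64-fold lower, a log2 fold change of −2.22 ± 0.06 (SE, n = 5 each, adjusted p = 1.34e-20, limma). dpy-17 had 743, 733, 705, 761 and 648 normalized reads in mutants, against 1561, 1540, 1547, 1602 and 1652 in wild type. This was 2.23-fold lower (log2 fold change −1.16 ± 0.04, adjusted p = 2.56e-17, limma), the smallest change of the 10 on the log2 scale.

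The collagens dpy-4, dpy-5 and dpy-13 fell further on the log2 scale, from few reads. dpy-13 had 11.9, 18.6, 5.15, 13.8 and 23.1 normalized reads in mutants, against 94.8, 94.7, 202, 132 and 154 in wild type. Its log2 fold change was −3.25 ± 0.35 (adjusted p = 4.23e-06, limma). dpy-4 had 16.6, 12.9, 13.7, 12.1 and 18.3 normalized reads in mutants, against 84.4, 108, 138, 99.0 and 122 in wild type, a log2 fold change of −2.84 ± 0.15. The lowest wild-type library of dpy-4 was above 4 times the highest mutant one. dpy-5 lay between 12.7 and 21.5 in mutants and between 85.4 and 150 in wild type, a log2 fold change of −2.68 ± 0.16.

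The roller and squat collagen sqt-1 had 11.9, 18.6, 12.9, 25.1 and 16.7 normalized reads in mutants, against 51.03, 63.2, 110, 77.2 and 69.0 in wild type. Its log2 fold change was −2.09 ± 0.20, and that of its genetic partner rol-6 was −1.67 ± 0.15, with 14.6 to 23.1 normalized reads in mutants against 44.8 to 70.8 in wild type. lon-3 changed by −1.77 ± 0.18 on the log2 scale, with 12.0 to 22.2 normalized reads in mutants against 38.5 to 71.6 in wild type. The strut collagen bli-2 had 7.13, 11.3, 4.29, 8.65 and 5.57 normalized reads in mutants, against 38.5, 36.5, 51.01, 56.2 and 33.6 in wild type, a log2 fold change of −2.47 ± 0.23. bli-1 had 3.17, 5.66, 0, 7.79 and 3.98 normalized reads in mutants, against 49.0, 35.5, 51.9, 26.9 and 36.4 in wild type. It passed the filter on low values through the 5 wild-type libraries alone, so that a difference was built into its entry, and its log2 fold change of −3.34 ± 0.46 depends on the pseudocount of 1. Without any 1 of the wild-type libraries bli-1 failed the filter. The other 9 members were called in all 10 fits that each left out 1 library. Scaling by library size alone, with a pseudocount of 1 read, raised the median log2 fold change of all genes to 0.20, and all 10 members were called lower under it as well. That scaling moved the share of higher calls among all genes called to 69.6%, against 48.1% in the fit reported. Under it 3807 of all 15964 genes tested were called lower.

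**Figure D3:**
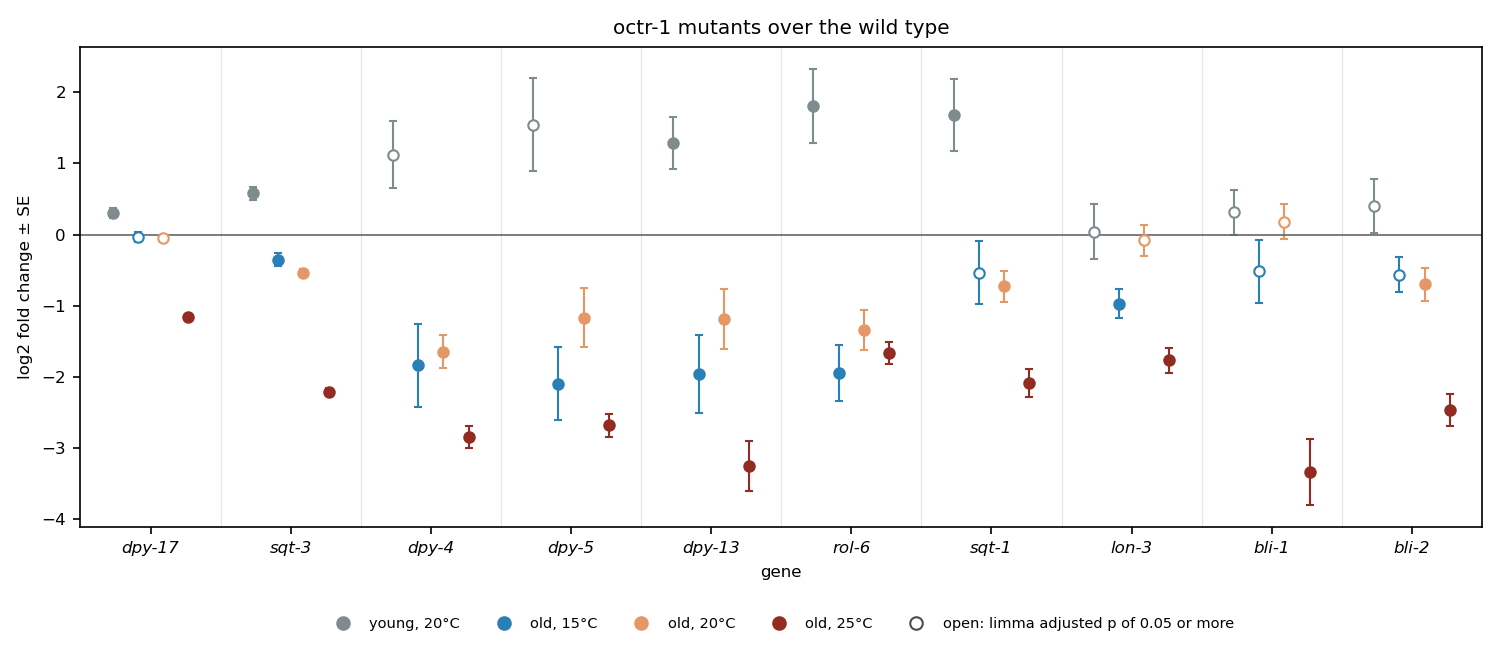
Log2 fold change of octr-1 mutants over wild type, with standard errors, for each member in young adults at 20 °C and in old animals at 15, 20 and 25 °C. Filled points have a limma adjusted p under 0.05 and open points do not. The points of young adults lie above 0. Those of old animals at 25 °C lie between −1.16 for dpy-17 and −3.34 for bli-1, the lowest of the 4 points for every member except rol-6, which is lower at 15 °C.

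In old animals at 20 °C, 7 of the 10 collagens fell in mutants, against 24.7% of all genes called lower and 47.5% called in either direction. The median log2 fold change was −0.71 over the members and −0.01 over all genes tested. sqt-3 had 676, 691, 708, 657 and 611 normalized reads in mutants, against 970, 963, 979, 1017 and 927 in wild type. The groups were apart, with a log2 fold change of −0.54 ± 0.05 (adjusted p = 6.01e-08, limma). For its partner dpy-17 the mutant libraries held 2439, 2483, 2645, 2277 and 2386 normalized reads, against 2500, 2569, 2552, 2573 and 2380 in wild type. These overlapped, and the log2 difference of −0.04 had a 95% interval of −0.13 to 0.05.

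dpy-4 had 14.8, 26.2, 10.8, 14.4 and 23.3 normalized reads in mutants at 20 °C, against 47.6, 43.7, 91.4, 47.5 and 56.6 in wild type. It fell by 1.65 ± 0.23 on the log2 scale with the groups apart, and so did rol-6, by 1.34 ± 0.28. dpy-5 (−1.17 ± 0.41), dpy-13 (−1.19 ± 0.42), sqt-1 (−0.73 ± 0.21) and bli-2 (−0.70 ± 0.24) also passed the test, with overlapping groups. lon-3 (−0.08 ± 0.21) and bli-1 (0.18 ± 0.25) did not pass. Without replicate 3 of wild type, the library with the highest collagen sum, 4 members were called lower. dpy-5, dpy-13 and bli-2 then had adjusted p-values of 0.0580, 0.0619 and 0.0590 in limma. dpy-5 kept its call in 3 of the 10 fits that left out 1 library, and dpy-13 in 2 of 10. With all libraries kept, 3 of 8 other settings lost the dpy-5 call and 1 of 8 the dpy-13 call, with limma adjusted p-values of up to 0.116 and 0.113 (both without the filter).

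At 15 °C, 6 of the 10 collagens fell in old mutants, against 27% of all genes called lower and 51.1% called in either direction. The median log2 fold change was −0.77 over the members and −0.01 over all genes tested. dpy-5 had 12.6, 8.78, 7.75, 7.09 and 14.2 normalized reads in mutants, against 33.0, 36.1, 171, 49.6 and 17.1 in wild type. The groups were apart, and the wild-type libraries spread about as widely as the genotypes differed, which is reflected in the error of the log2 fold change of −2.10 ± 0.52 (adjusted p = 0.00619, limma). dpy-13 (−1.96 ± 0.55), rol-6 (−1.94 ± 0.39) and lon-3 (−0.97 ± 0.20) fell with the groups apart as well. dpy-4 (−1.84 ± 0.59) and sqt-3 (−0.35 ± 0.09) fell with overlapping groups.

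The same 6 genes were called lower without replicate 3 of wild type at 15 °C. dpy-4 kept its call in 6 of the 10 fits that left out 1 library, and the other 5 in all 10. With all libraries kept, 3 of 8 other settings lost the dpy-4 call, with a limma adjusted p of up to 0.0864. dpy-17 had 2753, 2537, 2739, 2898 and 3107 normalized reads in mutants at 15 °C, against 2938, 2449, 3165, 2869 and 2935 in wild type. The groups overlapped, and the log2 difference of −0.04 had a 95% interval of −0.18 to 0.11. sqt-1 (−0.54 ± 0.44), bli-1 (−0.52 ± 0.44) and bli-2 (−0.56 ± 0.24) were not called. Without replicate 1 of the mutants, bli-2 was called at −0.77 (adjusted p = 0.00859, limma), and it was called in 3 of the 10 such fits.

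In young adults the direction was the other way. At 20 °C, 5 of the 10 collagens rose in octr-1 mutants, against 19.6% of all genes called higher and 43.6% called in either direction, and no member was called lower. The median log2 fold change was 0.85 over the members and −0.01 over all genes tested. sqt-3 had 602, 707, 637, 809 and 576 normalized reads in young mutants, against 512, 414, 484, 430 and 417 in young wild type. It alone had groups apart, with a log2 fold change of 0.58 ± 0.09 (adjusted p = 1.20e-04, limma). dpy-17 had 1103, 1293, 1175, 1196 and 1090 normalized reads in mutants, against 908, 865, 1147, 978 and 957 in wild type. Replicate 3 of wild type lay among the mutant libraries, and the log2 fold change was 0.30 ± 0.07.

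dpy-13 had 75.4, 53.8, 79.8, 160 and 66.6 normalized reads in young mutants, against 73.3, 28.2, 38.3, 19.9 and 23.9 in young wild type. It rose by 1.29 ± 0.37 on the log2 scale, rol-6 by 1.81 ± 0.52 and sqt-1 by 1.68 ± 0.51, all with overlapping groups. In young wild type rol-6 reached 20.2 normalized reads in replicate 1 and 1.66 to 9.40 in the other 4 libraries. dpy-4 (1.12 ± 0.47, adjusted p = 0.0814, limma), dpy-5 (1.55 ± 0.66, adjusted p = 0.0851), bli-2 (0.41 ± 0.38), bli-1 (0.31 ± 0.32) and lon-3 (0.04 ± 0.39) were not called. rol-6 passed the filter on low values through exactly 5 libraries, 4 mutant and 1 wild type, and failed it without any 1 of them, so it was called in 5 of the 10 fits that left out 1 library. Without replicate 4 of the mutants, the other 4 members were called. Without replicate 1 of wild type, those 4 were called together with dpy-4 and dpy-5, which had log2 fold changes of 1.46 and 1.96. sqt-1 kept its call in 9 of the 10 such fits and, with all libraries kept, lost it with log2(CPM + 1) alone (adjusted p = 0.0519, limma). With scaling by library size alone, 78.5% of all genes called were higher, against 44.9% in the fit reported, and 5 members were called higher in both. Of all 13122 genes tested, 3701 were called higher under that scaling.

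The difference between the genotype effects was tested directly. The mutant effect at 20 °C was lower in old than in young animals for 7 of the 10 members, against 15.2% of all genes called lower in this test and 29.3% called in either direction. The median difference in log2 fold change was −1.76 over the members and −0.01 over all genes. It was −1.10 ± 0.10 for sqt-3 (adjusted p = 1.09e-08, limma), −0.32 ± 0.08 for dpy-17, −3.17 ± 0.65 for rol-6, −2.75 ± 0.54 for dpy-4, −2.71 ± 0.82 for dpy-5, −2.46 ± 0.59 for dpy-13 and −2.41 ± 0.59 for sqt-1. These 7 were called in all 20 fits that left out 1 library. lon-3 (−0.11 ± 0.47), bli-1 (−0.12 ± 0.41) and bli-2 (−1.08 ± 0.46) were not called. Under scaling by library size alone 25.3% of all genes called in this test were higher, against 48.0%, and 7 members were called lower in both. Of all 15632 genes tested, 3344 were called lower under that scaling.

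Among old animals, the mutant effect was lower at 25 °C than at 20 °C for 9 members, against 29.5% of all genes called lower and 54.7% called in either direction. The median difference in log2 fold change was −1.59 over the members and 0.01 over all genes. It was −1.67 ± 0.07 for sqt-3 (adjusted p = 1.65e-18, limma), −1.11 ± 0.06 for dpy-17 (adjusted p = 4.02e-16, limma) and −1.68 ± 0.29 for lon-3. The remaining calls ran from −1.19 ± 0.29 for dpy-4 to −3.51 ± 0.54 for bli-1, and rol-6 was not called, at −0.32 ± 0.33. The mutant libraries of bli-1 at 25 °C held 0 to 9 reads, so the size of its difference depends on the pseudocount. Under scaling by library size alone 68.6% of all genes called in this test were higher, against 46.1%, and 9 members were called lower in both. Of all 16524 genes tested, 3098 were called lower under that scaling. Between 15 °C and 20 °C lon-3 alone was called (−0.88 ± 0.31, adjusted p = 0.0401, limma), against 10.6% of all genes called lower and 21% in either direction. Its call held in 10 of 20 fits that left out 1 library and was lost in 3 of 8 other settings (adjusted p up to 0.0703), and without replicate 3 of wild type at 15 °C its adjusted p was 0.0722 in limma. That fit called the sqt-3 difference instead, at 0.29 with an adjusted p of 0.0149. The 2 temperature tests share the 20 °C libraries with each other and with the test of age.

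The change between 25 °C and 20 °C is given next for each genotype. In old wild type at 25 °C against 20 °C, 8 collagens rose and 2 fell, against 32.9% of all genes called higher and 31.1% called lower, which is 64% together. The median log2 fold change was 1.09 over the members and 0.01 over all genes. bli-1 had the highest change, with 49.0, 35.5, 51.9, 26.9 and 36.4 normalized reads at 25 °C, against 5.71, 7.60, 9.62, 11.4 and 10.6 at 20 °C. The groups were apart, with a log2 fold change of 2.04 ± 0.22 (adjusted p = 1.45e-07, limma). bli-2 (1.39 ± 0.20), dpy-5 (1.48 ± 0.38) and dpy-13 (1.42 ± 0.42) rose with the groups apart, and sqt-1, lon-3, dpy-4 and rol-6 rose by 1.09, 1.09, 0.96 and 0.90 on the log2 scale with overlap.

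The 2 abundant collagens went the other way in wild type. dpy-17 fell by 0.67 ± 0.04 and sqt-3 by 0.29 ± 0.05 at 25 °C on the log2 scale, both with the groups apart. All 10 calls held in every fit that left out 1 of the 10 libraries. In mutants at 25 °C against 20 °C, bli-1 failed the filter, 1 member rose and 3 of the 9 tested fell, against 37.3% of all genes called higher and 37.4% called lower, which is 74.6% together. The median over the 9 was −0.38, and over all genes 0.01. sqt-3 fell by 1.97 ± 0.06 and dpy-17 by 1.79 ± 0.05 on the log2 scale with the groups apart (adjusted p = 7.16e-20 and 3.35e-21, limma). lon-3 fell by 0.61 ± 0.19 and rol-6 rose by 0.57 ± 0.23 with overlap, and rol-6 kept its call in 5 of 10 fits that left out 1 library and lost it in DESeq2 (adjusted p = 0.0773). Under scaling by library size alone with a pseudocount of 1 read, 67.1% of all genes called in mutants were higher, against 49.9%. The median of all genes was then 0.23, and lon-3 was no longer called (adjusted p = 0.0573, limma). With log2(CPM + 1) lon-3 kept its call, and 3 members were called lower, against 4188 of all 16262 genes tested.

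At 15 °C against 20 °C in wild type, dpy-17, bli-1 and bli-2 rose and sqt-3 fell, against 30.5% of all genes called higher and 33.4% called lower, which is 63.9% together, with a median of 0.16 over the members and 0.00 over all genes. sqt-3 had 620, 512, 789, 615 and 611 normalized reads at 15 °C, against 970, 963, 979, 1017 and 927 at 20 °C, and fell by 0.69 ± 0.08 on the log2 scale. The other 3 changed by 0.14 ± 0.06, 0.82 ± 0.32 and 0.61 ± 0.22, and without replicate 3 at 15 °C bli-2 was the only one of them called. dpy-17 was called in 3 of 10 such fits and bli-1 in 5, and dpy-17 was not called without the filter on low values (adjusted p = 0.0512, limma) or without replicate 3 at 20 °C (adjusted p = 0.0532). lon-3, at 0.40 and not called, was called at 0.59 without replicate 3 at 20 °C (adjusted p = 0.00857, limma). At 15 °C against 25 °C in wild type, dpy-17 rose by 0.80 ± 0.05 and 4 members fell, against 38.2% of all genes called higher and 40.8% called lower, which is 79% together, with a median of −0.90 over the members and −0.02 over all genes. The 4 were sqt-3 (−0.40 ± 0.09), lon-3 (−0.69 ± 0.16), bli-1 (−1.22 ± 0.31) and bli-2 (−0.78 ± 0.18), and all 9 members other than dpy-17 were called lower without replicate 3 at 15 °C. The share of all genes called lower in that fit is not given here, and 40.8% is of the full fit.

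In mutants at 15 °C against 20 °C, dpy-17 rose by 0.15 ± 0.05 and bli-2 by 0.75 ± 0.26, and sqt-3 fell by 0.49 ± 0.06, dpy-5 by 0.74 ± 0.30 and lon-3 by 0.48 ± 0.21 on the log2 scale. These 5 stood against 31.7% of all genes called higher and 34.8% called lower, which is 66.5% together, and the median was −0.30 over the members and 0.00 over all genes. The dpy-5 and lon-3 calls each held in 4 of 10 fits that left out 1 library. With all libraries kept, the lon-3 call (adjusted p = 0.0467, limma) was lost in 7 of 8 other settings, edgeR and DESeq2 among them, with adjusted p-values of up to 0.0924. Without replicate 1 of mutants at 15 °C bli-2 was not called (adjusted p = 0.0626, limma). At 15 °C against 25 °C in mutants, 9 members were tested, and 38.6% of all genes were called higher and 40.4% lower, which is 78.9% together. dpy-17 rose by 1.92 ± 0.05, sqt-3 by 1.46 ± 0.07 and bli-2 by 1.11 ± 0.28 on the log2 scale, and dpy-5 fell by 0.73 ± 0.24 and rol-6 by 0.95 ± 0.26. The median was 0.10 over the 9 and −0.02 over all genes, which scaling by library size alone moved to −0.19 with 38.5% of the calls higher, against 48.9%. These comparisons share libraries with each other.

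**Figure D4:**
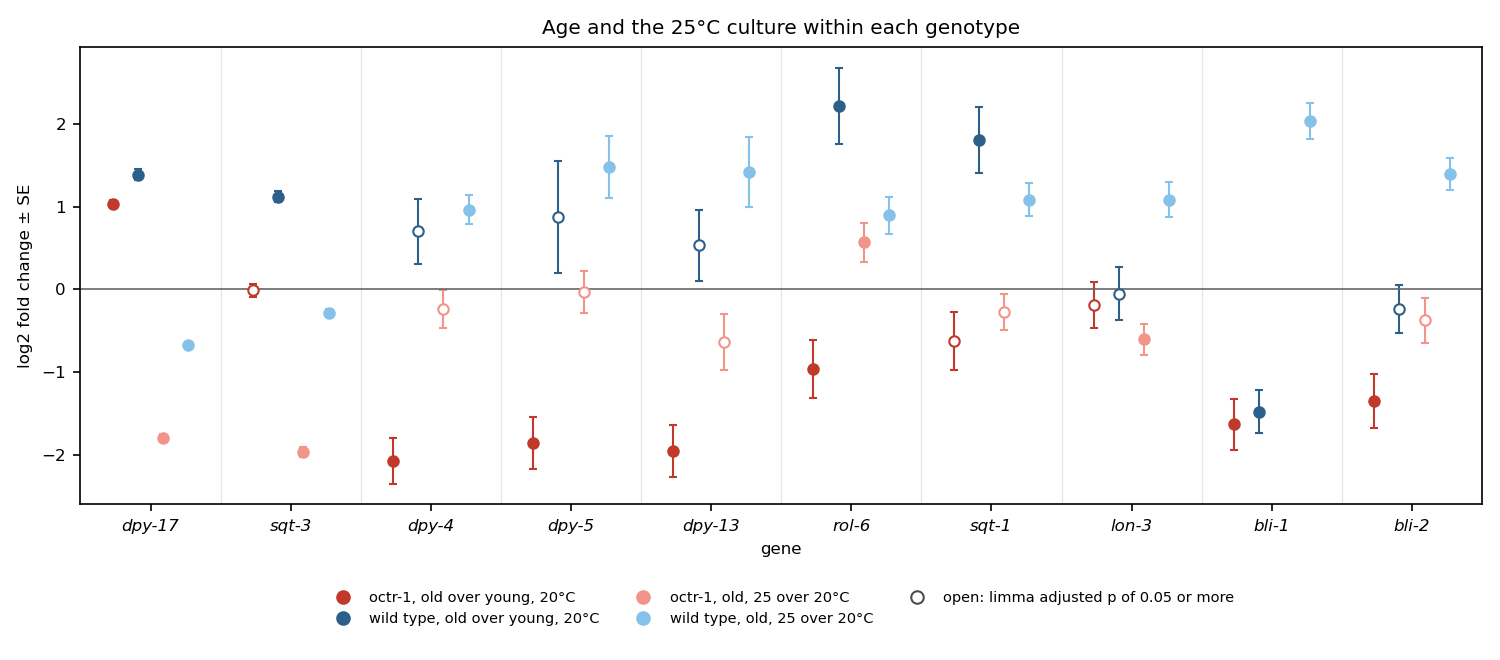
Log2 fold changes with standard errors of each member, for old over young animals at 20 °C and for old animals at 25 °C over 20 °C, in octr-1 mutants and in wild type. Filled points have a limma adjusted p under 0.05, open points do not, and bli-1 was not tested in mutants at 25 °C against 20 °C. dpy-17 rises with age in both genotypes, by 1.04 in mutants and 1.39 in wild type, and falls at 25 °C in both.

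With age at 20 °C, dpy-17 rose in both genotypes. Old mutants held 2439, 2483, 2645, 2277 and 2386 normalized reads, against 1103, 1293, 1175, 1196 and 1090 in young mutants, a log2 fold change of 1.04 ± 0.05 (adjusted p = 7.32e-13, limma). Old wild type held 2500, 2569, 2552, 2573 and 2380 normalized reads, against 908, 865, 1147, 978 and 957 in young wild type, a log2 fold change of 1.39 ± 0.06 (adjusted p = 3.07e-13, limma). The groups were apart in both genotypes. sqt-3 differed by −0.01 on the log2 scale in mutants, with a 95% interval of −0.18 to 0.15, and rose by 1.12 ± 0.07 in wild type. Under scaling by library size alone sqt-3 was called higher in mutants as well, at 0.55 (adjusted p = 2.34e-06, limma).

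In all, 4 members rose and 1 fell with age in wild type, against 43.3% of all genes called higher and 41.6% called lower, which is 84.9% together. rol-6 rose by 2.22 ± 0.46 and sqt-1 by 1.80 ± 0.40 on the log2 scale, and the strut collagen bli-1 fell by 1.48 ± 0.26, all with the groups apart. bli-1 had 5.71, 7.60, 9.62, 11.4 and 10.6 normalized reads in old wild type, against 31.6, 27.03, 39.7, 21.5 and 18.2 in young wild type, and passed the filter through the 5 young libraries alone, so that a difference was built into its entry. It failed the filter without any 1 of them. dpy-4 (0.70 ± 0.39), dpy-5 (0.87 ± 0.68), dpy-13 (0.54 ± 0.43), lon-3 (−0.05 ± 0.32) and bli-2 (−0.23 ± 0.29) were not called. Without replicate 1 of young wild type, dpy-4 was called at 1.04. The median was 0.79 over the members and 0.03 over all genes.

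In mutants, dpy-17 rose and 6 members fell with age, against 43.3% of all genes called higher and 41.6% called lower, which is 84.9% together. dpy-4 had 14.8, 26.2, 10.8, 14.4 and 23.3 normalized reads in old mutants, against 63.2, 40.98, 84.9, 122 and 80.2 in young mutants. It fell by 2.08 ± 0.28 on the log2 scale (adjusted p = 2.75e-06, limma), dpy-13 by 1.96 ± 0.32, dpy-5 by 1.86 ± 0.32, bli-1 by 1.64 ± 0.31 and bli-2 by 1.35 ± 0.33, all with the groups apart. rol-6 fell by 0.96 ± 0.36 with overlap and was not called without replicate 4 of the young mutants (adjusted p = 0.0613, limma) or under scaling by library size alone (adjusted p = 0.249). The bli-2 call was lost with log2(CPM + 1) alone (adjusted p = 0.0502, limma). The median was −1.16 over the members and 0.04 over all genes. In both genotypes all 6 muscle markers also fell with age, with 5950 to 10507 summed normalized reads in old libraries at 20 °C, against 40691 to 58302 in young ones. In both, all 6 intestinal markers fell, 8 of 10 oocyte markers fell and 2 rose, and all 6 neuronal markers rose. Of the sperm markers tested, 3 fell and 1 rose in wild type, and 2 fell and 2 rose in mutants. Of 6 tested markers of embryonic transcription, 4 rose and 1 fell in wild type, and 2 rose and 2 fell in mutants. The part of any of these tissues in the collagen values was not tested, and in whole animals fewer cells of a type and less RNA per cell cannot be told apart. Scaling by library size alone moved the median of all genes to 0.59 in mutants and 0.65 in wild type. The share of calls that were higher was 77.8% in mutants and 81.4% in wild type, against 50.98% and 51.01% in the fit reported. Under it, with a pseudocount of 1 read, 2 members were called higher and 5 lower in mutants, and 7 higher and 1 lower in wild type. In mutants 10464 of all 15264 genes tested were then called higher and 2978 lower. In wild type 10314 of 14486 were called higher and 2358 lower. With log2(CPM + 1), 2 members were called higher and 4 lower in mutants, and 6 higher and 1 lower in wild type. All genes called higher and lower then numbered 10520 and 3009 in mutants, and 10351 and 2376 in wild type. Member counts near these shares are no trait of the members.

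Other collagens that shape the body were compared with the members. Of all genes tested, 39.7% were called lower in mutants and 76.5% in either direction at 25 °C. These shares were 24.7% and 47.5% at 20 °C, and 27% and 51.1% at 15 °C. In young adults 19.6% were called higher and 43.6% in either direction. The annular furrow collagens, which line the circumferential furrows, are encoded by dpy-2, dpy-3, dpy-7, dpy-8, dpy-9 and dpy-10. In mutants at 25 °C, 5 of these 6 fell and 1 rose relative to wild type, with dpy-3 at −1.29 ± 0.16, dpy-7 at −1.13 ± 0.11 and dpy-2 at −0.94 ± 0.09 on the log2 scale. At 15 °C 4 of 6 fell, at 20 °C 1 rose and 1 fell, and in young adults 4 rose and none fell, with dpy-2 at 0.80 ± 0.17 and dpy-10 at 0.68 ± 0.08. Of the other shape collagens dpy-14, bli-6, rol-1, rol-8 and sqt-2, all 5 fell in mutants at 25 °C, with rol-1 at −4.27 ± 0.30, bli-6 at −3.80 ± 0.26 and dpy-14 at −1.34 ± 0.05. Like bli-1, both rol-1 and bli-6 passed the filter through the 5 wild-type libraries alone. In young adults 3 of the 4 tested rose in mutants, with bli-6 at 1.09 ± 0.29. In old wild type at 25 °C against 20 °C, bli-6 rose by 2.66 ± 0.25 and rol-1 by 3.05 ± 0.26, whereas dpy-14 fell by 0.45 ± 0.04 and dpy-10 by 0.82 ± 0.05. The 5 wild-type libraries at 25 °C that carried bli-6 and rol-1 past the filter above also enter this test. A difference may thus be built into the entry of both genes here as well. Among the adult-stage collagens, both tested fell in mutants at 25 °C, col-19 by 5.87 ± 0.20 and col-7, which also passed the filter through wild type alone, by 2.84 ± 0.32.

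Of the 14 tested genes for collagen processing and cross-linking, 8 fell and 1 rose in mutants at 25 °C. Beside this and the next list counts, 39.7% of all genes tested were called lower and 76.5% in either direction. Under scaling by library size alone with a pseudocount of 1 read, 8699 of all 15964 genes were called higher and 3807 lower. With log2(CPM + 1) these numbers were 8743 and 3826. A count near these shares, each under its own scaling, is no trait of a list. dpy-18, a prolyl 4-hydroxylase subunit that collagens need to form stable triple helices, changed by −0.71 ± 0.04 and its partner pdi-2, a protein disulfide isomerase, by −0.72 ± 0.03 on the log2 scale. Under scaling by library size alone 6 fell and 5 rose. The DBL-1 pathway, the BMP signal that sets body size, had 4 genes higher and 2 lower of 12, with its type I receptor gene sma-6 at 0.71 ± 0.06 and its type II receptor gene daf-4 at 0.41 ± 0.04. Under scaling by library size alone 10 were higher and none lower. Of 9 epidermal transcription factors 3 rose and 3 fell, with bed-3 at 0.91 ± 0.09 and nhr-23, which is needed for molting, at −0.29 ± 0.04, and under the other scaling 5 rose and 1 fell. Of 13 molting genes 9 fell and 2 rose, with fbn-1 at −1.74 ± 0.04, noah-1 at −1.50 ± 0.04 and mlt-11 at −1.54 ± 0.06. Their count under the other scaling is not given here. In young adults 10 of the 13 molting genes rose in mutants and none fell, with noah-2 at 0.60 ± 0.08. Of all genes tested there, 19.6% were called higher and 43.6% in either direction.

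Markers of other tissues also differed between genotypes at 25 °C. Of all genes tested, 76.5% were called in either direction at 25 °C, 47.5% at 20 °C and 51.1% at 15 °C. Called lower were 39.7%, 24.7% and 27%. A count of markers near these shares is no trait of the tissue. Of 6 muscle markers 5 fell and 1 rose in mutants, with summed levels of 7078 to 8010 normalized reads in mutants and 11982 to 13450 in wild type. Of 6 intestinal markers 5 fell and none rose (6241 to 6952 in mutants and 12179 to 13041 in wild type), and all 10 oocyte markers fell (158985 to 178200 in mutants and 223217 to 237634 in wild type). All 6 tested sperm markers rose (649 to 728 in mutants and 272 to 299 in wild type). Of 6 neuronal markers 4 rose and 1 fell (7950 to 8904 in mutants and 7399 to 7870 in wild type), and of the 6 tested markers of embryonic transcription 3 fell and 1 rose (254 to 267 in mutants and 285 to 346 in wild type). No marker was at 0 in any group. At 20 °C summed muscle markers overlapped, at 7493 to 8689 in mutants and 5950 to 10507 in wild type, and so did the summed intestinal markers, at 12891 to 15025 in mutants and 11515 to 13158 in wild type. Sperm markers were apart at 20 °C, at 475 to 553 in mutants and 238 to 281 in wild type, with 4 of 6 tested higher and none lower. Markers of embryonic transcription were apart too, at 403 to 481 in mutants and 555 to 731 in wild type, with 4 of 6 tested lower and none higher. Of the 10 oocyte markers 5 were lower and 2 higher, and of the 6 neuronal markers 2 were higher and none lower. At 15 °C 5 of 6 intestinal markers were lower in mutants (summed 3964 to 6255 in mutants and 5360 to 6467 in wild type), 5 of 6 tested sperm markers were higher (479 to 627 in mutants and 245 to 366 in wild type), and 4 of 6 neuronal markers were higher (11299 to 11646 in mutants and 9783 to 10689 in wild type). Of the other lists at 15 °C, 2 muscle markers were higher and 1 lower (4674 to 5584 in mutants and 4522 to 6106 in wild type), 3 oocyte markers were higher and 1 lower, and 1 of the 6 tested embryonic markers was lower. The part of these markers in the collagen values was not tested.

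Across the 8 group means of log2(CPM + 1), the genes that followed each member most closely were as follows. This scale uses library size alone, unlike the levels above, and the added 1 understates changes of members near 1 CPM. These are descriptions over 8 groups that share libraries, drawn from 12871 genes, and members with a mean under 1 CPM, that is counts scaled to a common library total, (rol-6, bli-1 and bli-2) were left out. col-125 was closest to dpy-4, dpy-5 and dpy-13, with Pearson r of 0.981, 0.974 and 0.988, and col-73 and sod-3 came next, with r between 0.924 and 0.952. dpy-17 was closest to dpy-3 (r = 0.995), then ceh-32 and F33E2.5 (r = 0.992 each). sqt-3 was closest to vglu-3 (r = 0.945), thn-2 (r = 0.932) and aagr-4 (r = 0.926). sqt-1 was closest to F41F3.3 (r = 0.956), col-38 (r = 0.952) and glf-1 (r = 0.938), and lon-3 to F41F3.3 (r = 0.937), sod-3 (r = 0.933) and npax-4 (r = 0.929).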

How the data were processed

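RNA of whole animals was prepared with a stranded mRNA kit, per the labels' protocols. Per the submitters' processing notes the authors used bcl2fastq, HISAT2 2.2.1, featureCounts and DESeq2 1.31.16 on genome build ce10. They deposited 9 tables of 10 libraries with normalized values, a signal of reads divided by size factors, and a log2 fold change per gene. Multiplying back by those size factors (0.794 to 1.25) gave whole reads within 0.001 for 100% of the values in the column with the fewest, and 70 pairs of columns from different tables held the same reads. The deposited values were tested as log2(value + 1) with limma 3.58.1 (trend, robust, R 4.3.3), over genes whose value reached 10 or more in 5 or more libraries, two-sided, with Benjamini-Hochberg adjustment over all genes tested. A fold change on this scale understates the change of genes with few reads. Comparisons without a table, and differences of genotype effects, used reads scaled by median-ratio size factors in the same way, and levels used such factors over all 40 libraries (0.604 to 1.37). The number of reads behind a value limits its precision. All 10 members passed the filter in every comparison except bli-1 in mutants at 25 °C against 20 °C or 15 °C. Alternatives were edgeR 4.0.16 and DESeq2 1.42.0 on the recovered reads, no filter, a pseudocount of 0.1, scaling by library size, a replicate block and leaving out each library. A second scaling by library size, with a pseudocount of 1 read, was chosen after seeing the data. The sign of the log2 fold change in the authors' deposited table was the same for 86 of 88 pairs of member and comparison, with a largest difference of 0.521.

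The members and gene lists were chosen with earlier results of these data known. The text names the 10 members, octr-1, from each list up to 3 genes of smallest p among those called in a comparison, and for each member with a mean of at least 1 CPM the 3 genes most like it. The lists are annular furrow collagens, other shape collagens, collagen processing, the DBL-1 pathway, epidermal transcription factors, molting genes, adult-stage collagens and markers of embryos, oocytes, sperm, intestine, muscle and neurons. The fits were tested on simulated data with a single low spread between libraries for all genes, beyond counting noise. The members with few reads often spread more widely, so the simulation does not bear on their errors. Exon lengths, overlaps and chromosomes come from Ensembl release 115, whose build differs from ce10, so no coordinates are given. Python 3.11.15, numpy 2.4.6, pandas 2.3.3 and matplotlib 3.10.9 were used.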

Additional observations from a re-analysis of the deposited data

Results flagged for a closer look

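Of the 80 sets of 5 libraries screened (10 members in 8 groups), 8 had a library whose gap to the nearest other was large for the range of its group, against about 1 in 20 by chance. In wild type at 15 °C, replicate 3 stood high for dpy-4 (213.7 normalized reads), dpy-5 (170.8) and dpy-13 (198.1). In wild type at 20 °C, replicate 3 stood high for dpy-4 (91.4). Among young mutants, replicate 4 stood high for dpy-13 (159.5), sqt-1 (86.5) and bli-2 (62.8). In mutants at 15 °C, replicate 1 stood high for bli-1 (32.6).

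The mutant effect differed between conditions in 17 tests of the difference itself by limma. Old against young animals at 20 °C differed for dpy-4 (−2.75), dpy-5 (−2.71), dpy-13 (−2.46), dpy-17 (−0.32), rol-6 (−3.17), sqt-1 (−2.41) and sqt-3 (−1.10), in log2 units. At 15 °C against 20 °C lon-3 differed (−0.88). At 25 °C against 20 °C dpy-4 (−1.19), dpy-5 (−1.50), dpy-13 (−2.05), dpy-17 (−1.11), sqt-1 (−1.35), sqt-3 (−1.67), lon-3 (−1.68), bli-1 (−3.51) and bli-2 (−1.76) differed. The value of bli-1 rests on 0 to 9 reads in mutants at 25 °C and depends on the pseudocount. In both tests with most calls the difference was negative for every member called.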

How the results depend on the processing

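Of 1193 recomputed log2 fold changes of members under other settings, 1113 kept their direction and side of the threshold, 24 lost the call, 17 gained it and 39 changed sign. Of 1760 with 1 library left out, 1615 kept both, 66 lost the call, 23 gained it and 56 changed sign. No value that changed sign with a library left out had been called. With the group names as given in the deposited table, the mutant fold changes at 25 °C against 20 °C turned round (dpy-4 0.24, dpy-5 0.032, dpy-13 0.64, dpy-17 1.79, rol-6 −0.57, sqt-1 0.28, sqt-3 1.97, lon-3 0.61, bli-2 0.38), with 3 called higher and 1 lower.

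Scaling by library size, with log2(CPM + 1) and then with a pseudocount of 1 read, turned the sign of bli-2 (0.10, 0.35) and lon-3 (0.22, 0.55) with age in wild type, of lon-3 (0.13, 0.35) and sqt-3 (0.52, 0.55) with age in mutants, of dpy-5 (0.044, 0.17) in mutants at 25 °C against 20 °C, of lon-3 (−0.019, −0.062) in mutants at 15 °C against 25 °C, of dpy-4 (0.081, 0.000455) in wild type at 15 °C against 20 °C, and of the effect difference of dpy-17 (−0.017, −0.017) and, in CPM alone, bli-2 (−0.014) between 15 °C and 20 °C. Members called higher with age numbered 7 in wild type with 1 read and 2 in mutants in both. With 1 read, 10314 of all 14486 genes tested were called higher in wild type and 10464 of 15264 in mutants. DESeq2, edgeR with RLE and edgeR with TMM gave dpy-4 0.40, 0.38 and 0.39 in wild type at 15 °C against 20 °C, dpy-4 0.066, 0.073 and 0.065 in mutants at 15 °C against 25 °C, and an effect difference of −0.056, −0.020 and −0.054 for sqt-1 between 15 °C and 20 °C. TMM gave −0.014 there for dpy-17, and sqt-3 with age in mutants came to 0.0011 in DESeq2 and 0.0054 in TMM. A pseudocount of 0.1 gave dpy-13 0.0049 in mutants at 15 °C against 25 °C. DESeq2 called 0 members higher in mutants at 25 °C against 20 °C. The lon-3 effect difference was not called in DESeq2, RLE or without the filter (0 lower). These causes were not tested.

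Deviations of same-numbered libraries correlated at −0.31 to 0.33 over genes with a mean of at least 100. Replicate numbers gave no steady pairing over these genes. In wild type at 25 °C against 15 °C and against 20 °C, 3 of 5 same-numbered pairs exceeded 0.1. Replicate 3 was highest for 6, 7 and 6 of the 8 members with few reads in old wild type at 15, 20 and 25 °C. A batch shared by same-numbered libraries was not tested. A replicate block called 7 members lower in wild type at 15 °C against 25 °C. The share of all genes called under it is not given here.

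Shares of all genes called in fits with 1 library left out are not given here, so the counts below have no measure beside them. With 1 library left out, members called lower in mutants against wild type numbered 4 to 7 at 20 °C. Wild type at 15 °C had 0 to 3 higher against 20 °C and 4 to 9 lower against 25 °C. Mutants had 1 to 2 higher and 1 to 4 lower at 15 °C against 20 °C, and 0 to 1 higher at 25 °C against 20 °C. Wild type had 0 to 1 lower with age, and the effect difference at 15 °C against 20 °C had 0 to 1. Ranges that crossed 0 were, for mutants against wild type, −0.27 to 0.25 for lon-3 in young adults, −0.21 to 0.11 for lon-3 at 20 °C and −0.10 to 0.0053 for dpy-17 at 15 °C. In wild type at 15 °C against 20 °C they were −0.54 to 0.33 for dpy-4, −0.30 to 0.52 for dpy-5, −0.32 to 0.40 for dpy-13, −0.10 to 0.42 for rol-6 and −0.37 to 0.25 for sqt-1. In mutants they were −0.23 to 0.33 for bli-1 at 15 °C against 20 °C, −0.19 to 0.10 for dpy-4, −0.31 to 0.19 for dpy-13 and −0.017 to 0.27 for lon-3 at 15 °C against 25 °C, and −0.27 to 0.21 for dpy-5 at 25 °C against 20 °C. With age they were −0.37 to 0.15 for lon-3 in wild type, and −0.064 to 0.060 for sqt-3 and −0.35 to 0.078 for lon-3 in mutants. For effect differences they were −0.31 to 0.21 for lon-3 and −0.26 to 0.12 for bli-1 with age, and −0.56 to 0.31 for dpy-4, −0.037 to 0.060 for dpy-17, −0.018 to 0.61 for sqt-1 and −0.057 to 0.28 for bli-2 at 15 °C against 20 °C. The 8 members other than dpy-17 and sqt-3 rest on few reads, which limits what their differences can show.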
